A study of Schmidtea mediterranea with 48 samples.

Results

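The 7 contigs described here carry the names of other proteins of the sarcomere and of the thin filament in muscle of the planarian *Schmidtea mediterranea*, beside the myosin heavy chains. They were chosen by the name of their best BLAST match in the study's supplementary lists, and rows of one contig were summed. They are 7 of the 26401 contigs counted in both tissues: dd_Smed_v4_223 (MYL6B, a myosin light chain), dd_Smed_v4_405 and dd_Smed_v4_436 (both TPM1, tropomyosin), dd_Smed_v4_333 (CNN2, calponin), dd_Smed_v4_3381 (TTN, titin), dd_Smed_v4_10174 (ACTN2, alpha-actinin) and dd_Smed_v4_1165 (CAPZB, the beta subunit of the actin capping protein). A best match names the most similar protein and does not by itself show the same role in planarians. All 7 had reads in every library and passed the filter on low counts in every fit.

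Muscle contracts when myosin filaments pull on thin filaments of actin. In vertebrate striated muscle, tropomyosin lies along the thin filament and controls access of myosin, alpha-actinin crosslinks the thin filaments at the Z-disc, capping protein closes their barbed ends there, and titin spans the sarcomere as an elastic link. Calponin binds actin and is best known from vertebrate smooth muscle. Planarian muscle lies in the body wall and around the inner organs, and it also expresses genes that give cells their position along the body.

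The animals were of the asexual strain CIW4 and were starved before collection. They had received double-stranded RNA against *nr4A*, which encodes a nuclear receptor expressed mostly in muscle, or control double-stranded RNA against *unc-22*, a gene of *C. elegans*. Heads cut just behind the eyes and tail tips were collected after 2, 3, 4 and 5 weeks of RNAi, with 3 libraries of 6 pooled animals for each tissue, week and RNAi group, 48 libraries in all. The weekly comparison asks whether transcript levels had changed before the anatomy did. At 4 weeks of RNAi the paper saw no change in muscle fibers or in the number of *collagen*-positive muscle cells, in head or tail. It reports loss of both in the head, but not in the tail, at a time later than the weeks sampled here.

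Levels are given as CPM, the counts scaled to a common library size by the TMM method within each tissue. The counts on contigs summed to 13800550 to 27491137 in the head libraries, and in the tail libraries they summed to 13395084 to 42917781. The contig of *nr4A* itself (dd_Smed_v4_12229) ranged from 24.6 to 29.3 CPM in control heads and from 12.6 to 20.1 CPM in *nr4A(RNAi)* heads, and from 18.1 to 25.2 CPM in control tails and from 11.7 to 17.8 CPM in *nr4A(RNAi)* tails. In head and tail alike, each of the 12 *nr4A(RNAi)* libraries was lower than all controls of the same week, as the labels give. A bulk library cannot tell fewer muscle cells from less RNA per muscle cell. The muscle cell counts given above come from the paper's microscopy and not from these libraries.

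Some libraries stood apart from the rest of their tissue, and most head values differ with and without them. Over the contigs other than the 7, the share lying more than 1 (log2) below the median of the tissue was 2.33% in *nr4A(RNAi)* head replicate 2 at week 2, 3.12% in replicate 2 at week 4, and 6.66% and 4.15% in replicates 1 and 2 at week 5. Among the tail libraries, the share was 5.96% in *nr4A(RNAi)* replicate 1 at week 2 and 1.93% in control replicate 1 at week 3. In the other 42 libraries it was at most 0.279%. All 4 such heads belong to the *nr4A(RNAi)* group, so in the head this property and the RNAi cannot be told apart, and at week 5 leaving them out keeps a single *nr4A(RNAi)* library. Results are therefore given first with all libraries and then without these 6. The share of 1% that marks a library, and the decision to leave libraries out at all, were set after the values of the 7 contigs had been seen. A share of 2% was tried first and marks 5 libraries, all but the control tail, and its results are given where they differ.

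With all libraries, few of the 7 contigs passed the test, which was the quasi-likelihood F test of edgeR at an adjusted p (Benjamini-Hochberg) below 0.05. It called 1 of the 7 in the head at week 3, MYL6B, where 5.25% of all contigs tested were called, and 1 of the 7 in the tail at week 5, TTN, where 9.89% were called. It called 0 of 7 in the head at weeks 2, 4 and 5, where 0%, 0.049% and 0.0111% of all contigs were called, and 0 of 7 in the tail at weeks 2, 3 and 4, where 0%, 0.144% and 0.407% were. Without adjustment, 0, 6, 2 and 0 of the 7 had p below 0.05 in the head at weeks 2, 3, 4 and 5, beside 2.84%, 18.6%, 7.86% and 15.8% of all contigs. In the tail 0, 0, 0 and 2 did, beside 1.31%, 5.86%, 5.69% and 23.9%. DESeq2 called 3 in the head at week 3, where it called 4.65% of all contigs that it gave an adjusted p, and 0 in every other week of either tissue. Its shares of all contigs in those weeks were 0.113%, 0.54% and 4.5% in the head at weeks 2, 4 and 5, and 0.0157%, 0.383%, 0.596% and 10.6% in the tail at weeks 2, 3, 4 and 5. For the mean of the 4 weekly differences edgeR called 0 of 7 in the head, where 13% of all contigs were called, and 4 of 7 had an unadjusted p below 0.05, beside 28.8% of all contigs. DESeq2 called 4 of the 7 in that comparison, where it called 18.2% of all contigs. In the tail, 0 of 7 were called for the mean by either tool, also at an unadjusted p below 0.05, against 3.08% of all contigs called by edgeR, 4.04% by DESeq2 and 12.6% at an unadjusted p below 0.05. Without the 6 libraries that stand apart, edgeR called 7 of 7 for the mean in the head, where 21.9% of all contigs were called, and 0 of 7 in the tail, where 7.84% were. By week and without these libraries it called 0, 1, 4 and 5 of the 7 in the head, against 0.336%, 5.25%, 3.24% and 12.9% of all contigs, and 0, 0, 0 and 1 in the tail, against 0.355%, 0.831%, 0.407% and 9.89%.

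**Figure D1:**
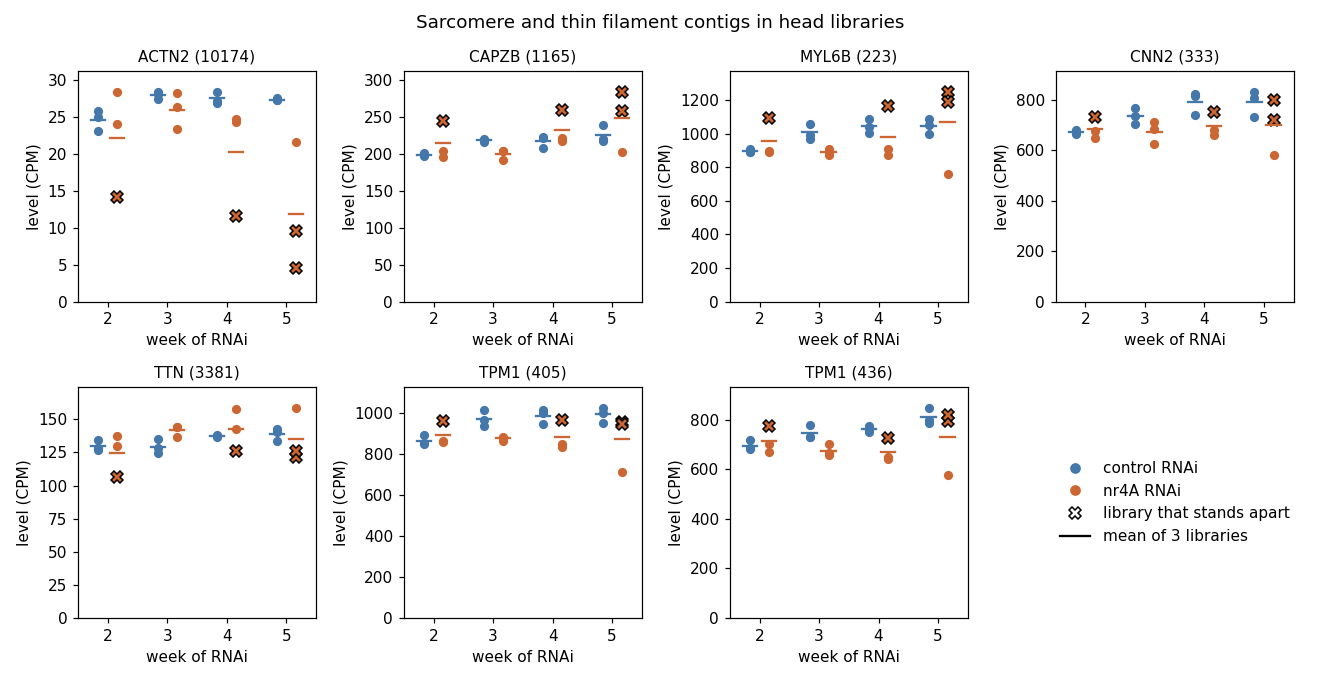
Level in CPM (vertical axes, each from 0) of the 7 contigs in the 24 head libraries by week of RNAi, with control RNAi in blue, *nr4A* RNAi in orange, the mean of 3 libraries as a short line, and crosses for the 4 libraries that stand apart. At week 5 the crosses lie at 4.59 and 9.53 CPM for ACTN2, far below the controls, and at 1250 and 1191 CPM for MYL6B, above them, while the third *nr4A(RNAi)* library lies below the controls for both.

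MYL6B (dd_Smed_v4_223), the light chain that binds the neck of the myosin head, was the one contig of the 7 that edgeR called in a head week with all libraries, where DESeq2 also called both tropomyosins. At week 3 the control heads held 1060, 995 and 970 CPM and the *nr4A(RNAi)* heads 912, 874 and 887 CPM. All 3 *nr4A(RNAi)* libraries lay below all 3 controls, and none of these 6 libraries stands apart. The difference was -0.17 on the log2 scale (standard error 0.05, 0.89-fold, adjusted p = 0.0411 by edgeR). It remained past the threshold without *nr4A(RNAi)* replicate 1 (adjusted p = 0.0411), and leaving out any other of the 6 libraries gave adjusted p-values from 0.0677 to 0.158 and values from -0.20 to -0.13.

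At week 2 the control heads held 892, 911 and 891 CPM of MYL6B and the *nr4A(RNAi)* heads 888, 1095 and 894 CPM. At week 4 the values were 1002, 1043 and 1085 CPM in controls and 910, 1164 and 872 CPM after *nr4A* RNAi, and at week 5 they were 1000, 1053 and 1089 CPM against 1250, 1191 and 762 CPM. In each of these weeks *nr4A(RNAi)* libraries lay both above and below the controls, and those above are the libraries that stand apart. At week 4 the difference was -0.10 (adjusted p = 0.805), and without replicate 2, which stands apart, -0.23 (adjusted p = 0.0244). The difference at week 5 was 0.03 (standard error 0.18, adjusted p = 0.919), and its direction depended on which libraries were kept. Without replicates 1 and 2 it was -0.45 (standard error 0.07, adjusted p = 0.00137), and without replicate 3 it was 0.19 (adjusted p = 0.0358). The first of these fits holds a single *nr4A(RNAi)* library and assumes that it varies like the controls. The second called 61% of all contigs tested. Of the 8 *nr4A(RNAi)* heads that do not stand apart, 7 lay below every control of their week, and all 4 that do lay above. How many of all contigs had such an order was not counted.

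The tropomyosin contigs dd_Smed_v4_405 and dd_Smed_v4_436 ran closely together in the head. They may share reads, since the handling of reads that match both is not stated in the sources used here beyond the choice of the best alignment, so they were not taken as independent. For dd_Smed_v4_405 the control heads at week 3 held 1014, 963 and 938 CPM and the *nr4A(RNAi)* heads 883, 864 and 879 CPM. For dd_Smed_v4_436 the values were 779, 733 and 733 CPM against 701.3, 667 and 659 CPM. The groups did not overlap for either contig at week 3, and the differences of -0.14 (standard error 0.05 for each) had adjusted p = 0.0847 and 0.0946 by edgeR, and 0.0131 and 0.0276 by DESeq2.

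At week 4, dd_Smed_v4_436 stood at 750, 759 and 776 CPM in control heads and at 648.6, 728 and 641 CPM in *nr4A(RNAi)* heads, again without overlap (-0.19, standard error 0.07, adjusted p = 0.594, and -0.25 with adjusted p = 0.00961 without replicate 2). At week 5 the controls held 789, 802 and 848 CPM and the *nr4A(RNAi)* heads 797, 822 and 577 CPM. Replicate 3 was low, and replicates 1 and 2, which stand apart, lay within the controls. The mean difference over the weeks was -0.12 for both tropomyosin contigs (standard error 0.04 and 0.05, adjusted p = 0.0652 and 0.0952 by edgeR, 0.0072 and 0.0211 by DESeq2). Without the libraries that stand apart it was -0.22 and -0.23 (standard error 0.02 for each, adjusted p = 2.42e-07 and 1.63e-07). Among the 8 *nr4A(RNAi)* heads that do not stand apart, 6 lay below every control of their week for dd_Smed_v4_405 and 7 for dd_Smed_v4_436. Of the 4 that do, 1 lay below and 1 above for each contig. These orders were not counted over all contigs.

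CNN2 (dd_Smed_v4_333), calponin, was lower in most *nr4A(RNAi)* heads. At week 3 the control heads held 767, 733 and 705 CPM and the *nr4A(RNAi)* heads 710.8, 626 and 682 CPM, and at week 4 they held 737, 815 and 823 CPM against 681, 749 and 660 CPM. The groups overlapped by 1 library in each of these weeks. The mean difference in the head was -0.12 (standard error 0.04, adjusted p = 0.077 by edgeR and 0.0141 by DESeq2), and without the libraries that stand apart -0.21 (standard error 0.03, adjusted p = 1.92e-05).

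ACTN2 (dd_Smed_v4_10174), the crosslinker of thin filaments at the Z-disc, had the most negative mean difference of the 7 in the head with all libraries, but not without those that stand apart. At week 5 the control heads held 27.2, 27.6 and 27.2 CPM and the *nr4A(RNAi)* heads 4.59, 9.53 and 21.6 CPM. At week 4 the values were 26.9, 27.2 and 28.3 CPM against 24.3, 11.6 and 24.7 CPM. In both weeks all *nr4A(RNAi)* libraries lay below all controls, and the lowest of them, at 4.59, 9.53 and 11.6 CPM, are libraries that stand apart. At week 2 the library that stands apart held 14.2 CPM beside 28.4 and 23.98 CPM in the other *nr4A(RNAi)* heads and 25.8, 23.1 and 25.0 CPM in controls.

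The fitted difference of ACTN2 was -1.17 at week 5 (standard error 0.52, adjusted p = 0.340). It was -0.33 (standard error 0.09, adjusted p = 0.0361) without replicates 1 and 2, with a single *nr4A(RNAi)* library left, and -1.97 (adjusted p = 2.53e-05) without replicate 3. The direction was the same in these fits, and the size rested on the libraries kept. The fit without replicate 3 called 61% of all contigs tested. For the mean over the weeks the difference was -0.47 (standard error 0.17, 0.72-fold, adjusted p = 0.0778 by edgeR and 0.0469 by DESeq2). It was -0.70 (adjusted p = 0.0014) without replicate 3 of each week and -0.14 (standard error 0.04, 0.91-fold, adjusted p = 0.0196) without the libraries that stand apart. For the mean, the fit without *nr4A(RNAi)* replicate 3 called 49.9% of all contigs tested. A low ACTN2 value appeared in the tail too, where a control library stands apart: control replicate 1 at week 3 held 12.8 CPM beside 20.3 and 20.6 CPM in the other controls. *nr4A(RNAi)* tail replicate 1 at week 2 held 7.81 CPM beside 21.9 and 19.6 CPM.

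**Figure D2:**
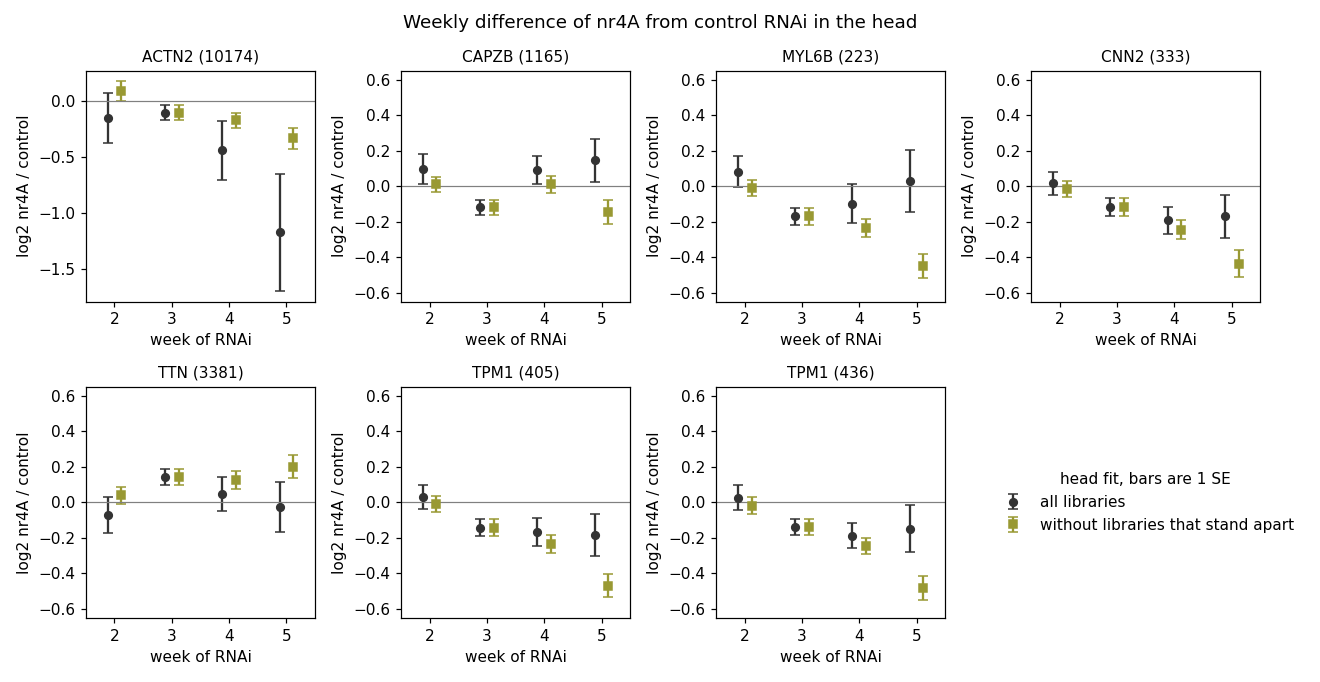
Log2 difference of *nr4A* from control RNAi in the head (vertical axes; the ACTN2 panel has its own scale) by week, with 1 standard error, from fits of all libraries (circles) and without the libraries that stand apart (squares). Week 3 has no such library and gives the same value in both, -0.17 for MYL6B. At week 5 the fits part, at 0.03 and -0.45 for MYL6B and at -1.17 and -0.33 for ACTN2.

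TTN (dd_Smed_v4_3381), named for the elastic link of the sarcomere, was higher in the *nr4A(RNAi)* heads that do not stand apart. At week 3 the control heads held 128, 125 and 135 CPM and the *nr4A(RNAi)* heads 137, 145 and 144 CPM. All *nr4A(RNAi)* libraries lay above all controls, and the difference of 0.14 (standard error 0.05) was not past the threshold (adjusted p = 0.0869 by edgeR). At week 5 the controls held 143, 134 and 140 CPM and the *nr4A(RNAi)* heads 121, 126 and 159 CPM. Replicates 1 and 2, which stand apart, were low and replicate 3 was high. The difference at week 5 was -0.03 (standard error 0.14, adjusted p = 0.911). It was -0.20 (adjusted p = 0.0159) without replicate 3, where 61% of all contigs were called, and 0.20 without replicates 1 and 2. Of the 8 *nr4A(RNAi)* heads that do not stand apart, 7 lay above every control of their week, and all 4 that do lay below. This order was not counted over all contigs.

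CAPZB (dd_Smed_v4_1165), the capping protein subunit, lay above every control of its week in the 4 *nr4A(RNAi)* heads that stand apart, and below in 5 of the other 8. The share of all contigs with such an order was not counted. The *nr4A(RNAi)* heads held 204, 192 and 204 CPM at week 3, below the controls at 219, 216 and 220 CPM (-0.12, standard error 0.04, adjusted p = 0.131). At week 5 they held 285, 259 and 203 CPM against 217, 239 and 220 CPM. The difference at week 5 was 0.15 (adjusted p = 0.524). It was 0.24 (adjusted p = 0.014) without replicate 3, where 61% of all contigs were called, and -0.14 without replicates 1 and 2. The mean difference over the weeks was 0.05 (standard error 0.05, adjusted p = 0.489), and -0.07 (standard error 0.02, adjusted p = 0.0429) without the libraries that stand apart.

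Read together, 4 of the 7 contigs (CAPZB, MYL6B and both TPM1) had all *nr4A(RNAi)* heads below all controls at week 3, an order that 12.7% of all contigs had, and 1 (TTN) had all above, as 9.97% did. At week 4 the order was below for 2 of 7, ACTN2 and dd_Smed_v4_436, against 7.4% of all contigs. At week 5 it was below for ACTN2 alone, against 10.7%. At week 2 all 7 overlapped. Orders above all controls were held by 5.5%, 10.6% and 11.8% of all contigs at weeks 2, 4 and 5, and orders below by 5.18% at week 2. The median log2 difference of the 7 over the weeks was -0.12 in the head, beside -0.01 over all contigs tested, and without the libraries that stand apart it was -0.21, beside -0.0006.

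The calls without these libraries rested in part on the single *nr4A(RNAi)* head left at week 5. With week 5 also left out, 5 of the 7 were called for the mean in the head by edgeR, where 10.4% of all contigs were called. MYL6B was at -0.14 (adjusted p = 0.000814), dd_Smed_v4_405 at -0.13 (adjusted p = 0.00119), dd_Smed_v4_436 at -0.14 (adjusted p = 0.000775), CNN2 at -0.13 (adjusted p = 0.00766) and TTN at 0.10 (adjusted p = 0.0206). ACTN2 and CAPZB were not called, at -0.06 and -0.04 (adjusted p = 0.440 and 0.393).

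**Figure D3:**
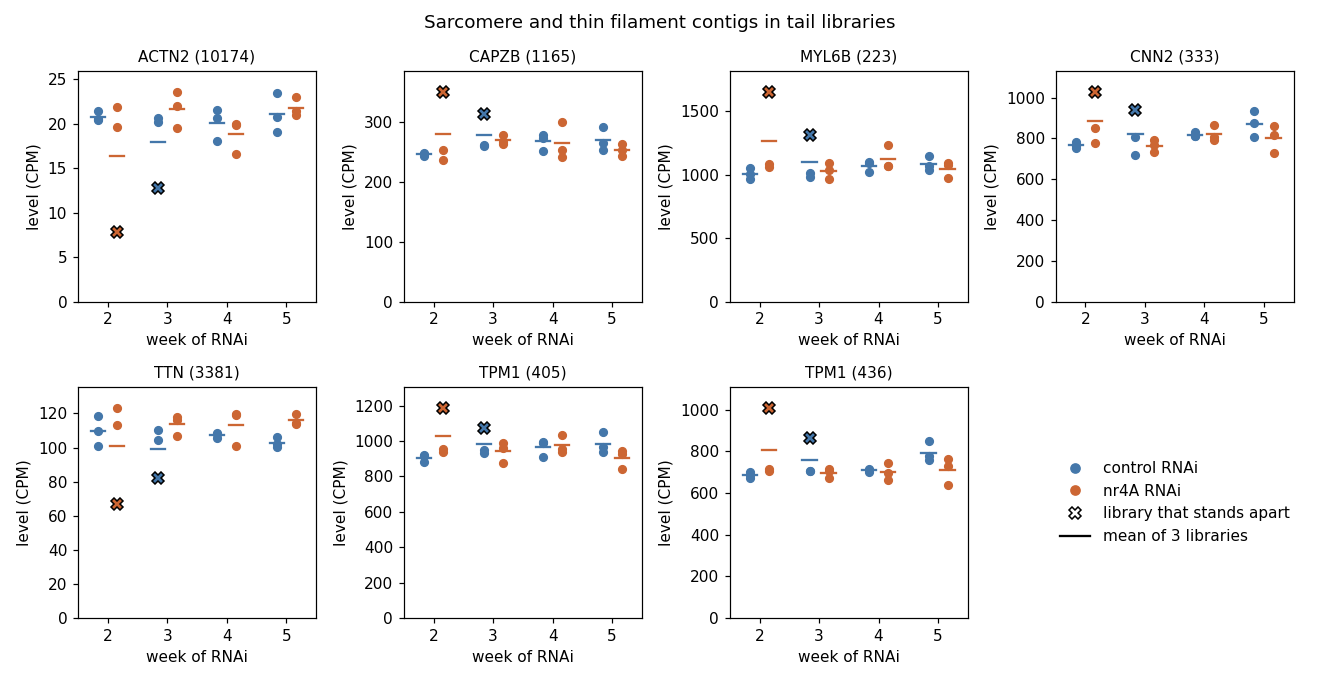
Level in CPM (vertical axes, each from 0) of the 7 contigs in the 24 tail libraries by week of RNAi, with colours and marks as for the heads. The *nr4A(RNAi)* library that stands apart at week 2 holds 1654 CPM of MYL6B and 7.81 CPM of ACTN2, and the control library that does at week 3 holds 1317 and 12.8 CPM.

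In the tail TTN alone was called, at week 5, where the controls held 102, 100 and 106 CPM and the *nr4A(RNAi)* tails 119, 115 and 114 CPM. All *nr4A(RNAi)* libraries lay above all controls, as they did for 14% of all contigs in that week. The difference was 0.18 (standard error 0.05, 1.13-fold, adjusted p = 0.0456 by edgeR), and it was not called when any of the 6 libraries was left out (adjusted p from 0.079 to 0.162) or with DESeq2 (0.0668). No library of that week stands apart. The other 6 contigs overlapped between the groups at week 5, with differences from -0.16 for dd_Smed_v4_436 to 0.06 for ACTN2.

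At week 2 in the tail, 3 of the 7 (MYL6B and both TPM1) had all *nr4A(RNAi)* libraries above all controls, which 4.87% of all contigs did. MYL6B was at 1054, 1006 and 969 CPM in controls and at 1654, 1064 and 1086 CPM after *nr4A* RNAi, the first of these being the library that stands apart. The difference was 0.30 (adjusted p = 0.979), and 0.08 (adjusted p = 0.690) without that library. At weeks 3 and 4 all 7 overlapped, while 7.67% and 5.29% of all contigs lay below and 6.98% and 6.39% above. None of the 7 lay below at weeks 2 or 5, where 3.21% and 14.3% of all contigs did. The mean differences over the weeks in the tail lay between -0.03 and 0.08, with standard errors up to 0.12 for ACTN2 and up to 0.07 for the others, and their median was 0.0003 beside 0.002 over all contigs tested. TTN, at 0.08 in that mean, was called without *nr4A(RNAi)* replicate 1 of each week (0.16, adjusted p = 0.0246) and was at 0.11 (adjusted p = 0.0596) without the libraries that stand apart.

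**Figure D4:**
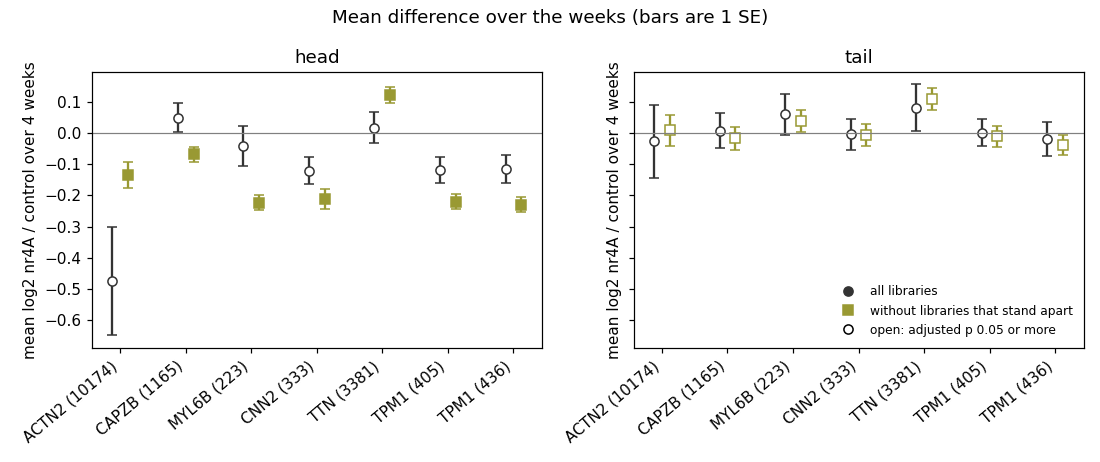
Mean log2 difference of *nr4A* from control RNAi over the 4 weeks for each contig in the head and in the tail, with 1 standard error, from all libraries (circles) and without the libraries that stand apart (squares); filled marks passed the adjusted threshold and open ones did not. In the head, MYL6B is at -0.04 and -0.22 in these fits, and ACTN2 at -0.47 and -0.14, and in the tail no mark is filled.

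The difference between the tissues was itself tested. With all libraries, the mean head difference less the mean tail difference ran from -0.45 for ACTN2 (standard error 0.21, adjusted p = 0.430) to 0.04 for CAPZB, and 0 of 7 were called by edgeR or by DESeq2, with 1 at an unadjusted p below 0.05, against 1.25% of all contigs called by edgeR, 2.29% by DESeq2 and 10.7% at an unadjusted p below 0.05. Without the 6 libraries that stand apart, 4 of 7 were called, against 3.73% of all contigs. In that fit, with a single *nr4A(RNAi)* head at week 5, MYL6B was at -0.27, dd_Smed_v4_405 at -0.22, dd_Smed_v4_436 at -0.20 and CNN2 at -0.21. For each, the RNAi difference was more negative in the head than in the tail. This count was 1, dd_Smed_v4_405 at -0.19 (adjusted p = 0.0389), when only the 5 libraries over 2% were left out and control tail replicate 1 of week 3 was kept, where 2.1% of all contigs were called. It was also 1, MYL6B at -0.22 (adjusted p = 0.0367), when week 5 was left out with the 6, where 0.866% were.

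The change from week 2 to week 5 was tested as well. The difference at week 5 minus that at week 2 was called for 0 of 7 in either tissue by edgeR and DESeq2, with 1 in the head and 3 in the tail at an unadjusted p below 0.05. Of all contigs, 0.27% were called in heads, where 10% had an unadjusted p below 0.05, while for tails these shares were 0.0561% and 8.81%. DESeq2 called 1.74% of all contigs in heads and 0.739% in tails. Without the libraries that stand apart, 4 of 7 were called in the head, where 5.34% of all contigs were (0 of 7 in the tail, where 0.13% were), with values of -0.45 for MYL6B, -0.47 for both TPM1 and -0.43 for CNN2. These values use 1 *nr4A(RNAi)* head at week 5. Control heads at week 5 were above those at week 2 by 0.10 to 0.24 for the 7 contigs. None of these was called with all libraries by edgeR or DESeq2, with 3 at an unadjusted p below 0.05, beside 1.63% of all contigs called by edgeR, 5.24% by DESeq2 and 12.3% at an unadjusted p below 0.05. Without the libraries that stand apart 5 were called, against 15.6%. No control head stands apart, so both fits hold the same control heads, and the differences again ran from 0.10 to 0.24. What differs is the *nr4A(RNAi)* libraries that enter the shared spread. In control tails 0 of 7 were called for the same change by edgeR and DESeq2, 0 at an unadjusted p below 0.05, beside 0.582%, 2.01% and 8.28% of all contigs, and 0 without the libraries that stand apart, against 3.08%.

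Other contigs of the contractile apparatus and its calcium handling, a list of 9 with the myosin heavy chains, were lower in the head. Of these, 7 fell and 1 rose in the mean over the weeks with all libraries, where 5.22% of all contigs fell and 7.82% rose, and the median difference was -0.36, beside -0.12 for the 7. The myosin heavy chain contigs fell by 0.26 (dd_Smed_v4_249), 0.28 (dd_Smed_v4_711), 0.59 (dd_Smed_v4_432) and 1.03 (dd_Smed_v4_1434) on the log2 scale. Their adjusted p-values from edgeR were 5.37e-05, 5.43e-05, 5.43e-08 and 0.0334. The last of these values moved to -0.53 without the libraries that stand apart.

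ATP2A2 (dd_Smed_v4_1772), the pump that returns calcium to the sarcoplasmic reticulum, was at -0.81 (standard error 0.06, adjusted p = 3.12e-08). Transgelin (dd_Smed_v4_635), an actin-binding relative of calponin, was at -0.37 (adjusted p = 5.66e-08), and a LIM domain contig (dd_Smed_v4_5037) at -0.36 (adjusted p = 3.58e-07). One calmodulin contig (dd_Smed_v4_4669) was at 0.24 (adjusted p = 0.0216) and was not called without the libraries that stand apart (0.07, adjusted p = 0.116), while the other (dd_Smed_v4_660) was at -0.02 with all libraries and was called at -0.20 without them. In the tail, 3 of the 9 fell: dd_Smed_v4_432 at -0.25, dd_Smed_v4_5037 at -0.55 and dd_Smed_v4_1772 at -0.35 (adjusted p = 0.00124, 1.04e-09 and 0.000557), where 1.87% of all contigs fell. Without the libraries that stand apart 4 did, with dd_Smed_v4_1434 at -0.29 (adjusted p = 0.000421), where 4.5% of all contigs fell.

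Markers of cell types moved in the same head libraries. Of 10 muscle markers, 9 of them collagens, 8 fell in the head and 5 in the tail for the mean over the weeks, with 0 called higher, where 5.22% and 1.87% of all contigs fell. All that fell were collagens. The other marker, a MyoD-like contig (dd_Smed_v4_12634), was at 0.10 in the head (adjusted p = 0.118) and -0.16 in the tail (adjusted p = 0.358) by edgeR. The summed level, nearly all of it collagen, ran from 10050 to 13120 CPM in control heads and from 6869 to 11210 CPM in *nr4A(RNAi)* heads. The paper counts collagens among the muscle genes that depend on *nr4A*, from these same libraries. The fall of the collagen markers is therefore no separate result on muscle cells. Both epidermal markers fell in the head (dd_Smed_v4_950 at -0.68 and dd_Smed_v4_920 at -0.22) and both neural ones rose (dd_Smed_v4_1566 at 0.15 and dd_Smed_v4_1538 at 0.42, or 0.16 without the libraries that stand apart), while 0 of 2 ciliated and 0 of 2 dividing cell markers were called. The paper already names dd_Smed_v4_950 (*vim*) as lowered by *nr4A* RNAi in head and tail, from these same libraries. Its fall is therefore no separate result on epidermal cells. The summed neural level was 506 to 630 CPM in control heads and 566 to 732 CPM after *nr4A* RNAi, and the epidermal one 919 to 1650 and 675 to 1007 CPM. In the tail, dd_Smed_v4_950 fell by 1.03 and no other epidermal, neural, ciliated or dividing cell marker was called. The ciliated sum ran from 708 to 998 CPM in control heads and from 510 to 992 CPM in *nr4A(RNAi)* heads, from 746 CPM without the libraries that stand apart, and the dividing cell sum from 75.6 to 84.6 and from 77.1 to 84.8 CPM. No marker was at 0 in either tissue. The muscle sum in the tail ran from 9686 to 12770 CPM in controls and from 7184 to 11110 CPM after *nr4A* RNAi. Of 567 further contigs listed as enriched in *nr4A*-positive muscle cells, 68 fell and 36 rose in the head, where 5.22% of all contigs fell and 7.82% rose, and their median difference was -0.02, beside -0.01 over all contigs tested. Of 568 tested in the tail, 17 fell and 7 rose, where 1.87% of all contigs fell and 1.21% rose. The part of cell type shares in the values of the 7 contigs was not tested.

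How the 7 contigs varied together over libraries is given as a description, since the libraries share RNAi groups and weeks and the levels share each library's scaling. Over the 24 head libraries, Pearson's r between the log2 levels of the 4 contigs MYL6B, TPM1 (both) and CNN2 was 0.81 to 0.92, and it was 0.89 to 0.98 over the 20 that do not stand apart. In the tail it was 0.86 to 0.92 over 24 libraries and 0.62 to 0.86 over 22. For TTN with these 4 contigs r was -0.59 to -0.35 over 24 head libraries and -0.46 to -0.35 over 20, and in the tail it was -0.84 to -0.71 over 24 and -0.43 to -0.12 over 22. ACTN2 changed sides in the head with the libraries kept. Against the same 4 contigs its r was -0.59 to -0.08 over all head libraries and 0.66 to 0.75 over the 20. In the tail it was -0.84 to -0.64 over 24 and lay on both sides of 0, at -0.08 to 0.20, over 22. For CAPZB with these 4 contigs r was 0.49 to 0.84 over 24 head libraries and 0.53 to 0.66 over 20. Its tail values were 0.56 to 0.74 over 24 and 0.06 to 0.27 over 22.

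The contigs whose pattern over all 48 libraries was most like the mean of the 7, out of 9849 with at least 10 CPM in both tissues, were dd_Smed_v4_2229 (r = 0.94), dd_Smed_v4_323 (0.92), dd_Smed_v4_375 (0.84), dd_Smed_v4_3388 (0.83) and dd_Smed_v4_198 (0.83). Of these, dd_Smed_v4_375 has RAB28, a small GTPase, as its best match. The levels behind these values were centred within each tissue, and the libraries that stand apart were included. Over all libraries of either tissue, TTN and ACTN2 correlated negatively with MYL6B, TPM1 and CNN2. The mean of the 7 therefore follows mainly the contigs that moved together and not TTN or ACTN2.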

How the data were processed

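RNA from heads and tails was sequenced from polyA libraries (TruSeq). Mapping by the authors was to the dd_Smed_v4 transcriptome, with bowtie 1 reporting best alignments, and they deposited raw counts per contig for 24 head and 24 tail libraries, without normalization. The submitters' processing notes also name CASAVA 1.7.0 and Trimmomatic 0.32. The authors' own DESeq comparisons hold group means, fold changes and p-values and were not used. No sequence or contig length was used here, so levels were not compared between contigs.

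Rows of one contig number were added up, which for dd_Smed_v4_3381 joined 2 rows in the tail. The 3 rows of the head table that are no contigs, with 12.4% to 18.8% of the counts, were left out. Tests used edgeR 4.0.16 under R 4.3.3 with TMM, filterByExpr (minimum count 10, minimum total 15), the quasi-likelihood F test and Benjamini-Hochberg adjustment over all contigs tested. The fits held the 6 libraries of a tissue and week, the 24 of a tissue (mean over weeks, week 5 minus week 2, controls over time) or all 48 (head minus tail). The smallest p that an exact permutation of 3 libraries against 3 can give is 0.1, so the weekly tests rest on a spread shared between contigs. DESeq2 1.42.0 was an alternative. The fits were also run on simulated counts with known changes. The simulation held no library that stands apart and no group of a single library, so it does not bear on the fits that turn on these. Named contigs were the 7, *nr4A*, those of the pathway and marker lists past the threshold in a tissue mean, and the 5 most alike in pattern; the pathway contigs that missed it are named too. The 7 contigs, the lists and the rule were chosen with earlier results of these data known, and the settings without the libraries that stand apart were added after seeing the data.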

Additional observations from a re-analysis of the deposited data

How the results depend on the processing

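Of 1673 values of single contigs under an alternative, 1456 kept their direction and their side of the threshold, 86 passed it only in the alternative, 15 no longer passed it and 116 changed sign. Of those 116, 112 passed the threshold in neither fit and 4 in the alternative. The cause was not tested. The settings without libraries that stand apart were chosen after seeing the data, and they leave 1 *nr4A(RNAi)* head at week 5, which is assumed to vary like the controls. With the tropomyosin contigs counted as 1, there were 6 contigs in place of 7. Depth was at least 13395084 reads a library and all 7 contigs were counted in each.

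Counts of called contigs that differed follow, each with the share of all contigs called under that setting in parentheses; a count near that share is not a result about the 7. With DESeq2, 3 of the 7 for head week 3 (4.65%), 4 of the 7 for the head mean over the weeks (18.2%) and 0 of the 7 for tail week 5 (10.6%) were called. With the 24 libraries of a tissue in one fit, 0 of the 7 for head week 3 (0.245%), 1 of the 7 for head week 5 (13%) and 0 of the 7 for tail week 5 (1.7%) were called. Without the 6 libraries that stand apart, 4 of the 7 for head week 4 (3.24%), 5 of the 7 for head week 5 (12.9%), 7 of the 7 for the head mean over the weeks (21.9%), 4 of the 7 for head week 5 minus week 2 (5.34%), 5 of the 7 for head control week 5 against week 2 (15.6%) and 4 of the 7 for head minus tail (3.73%) were called. Without the 5 libraries over 2%, 4 of the 7 for head week 4 (3.24%), 5 of the 7 for head week 5 (12.9%), 7 of the 7 for the head mean over the weeks (21.9%), 4 of the 7 for head week 5 minus week 2 (5.34%), 5 of the 7 for head control week 5 against week 2 (15.6%) and 1 of the 7 for head minus tail (2.1%) were called. With the DESeq2 size factors in edgeR, 3 of the 7 for the head mean over the weeks (13.7%) were called. Without week 2, 1 of the 7 for the head mean over the weeks (11.4%) were called. Without the 6 libraries that stand apart and without week 5, 5 of the 7 for the head mean over the weeks (10.4%) and 1 of the 7 for head minus tail (0.866%) were called. With no filter on low counts, 0 of the 7 for tail week 5 (6.71%) were called. Leaving out each replicate in turn, the count ran from 0 to 1 for head week 3 (5.53% without *nr4A* replicate 1), from 0 to 4 for head week 4 (3.24% without *nr4A* replicate 2), from 0 to 4 for head week 5 (61% without *nr4A* replicate 3), from 0 to 3 for the head mean over the weeks (6.52% without *nr4A* replicate 2), from 0 to 1 for head week 5 minus week 2 and for head control week 5 against week 2 (11.3% and 2.64% without *nr4A* replicate 3), to 0 for tail week 5 (4.28% to 10.8%) and from 0 to 1 for the tail mean over the weeks and for head minus tail (9.92% and 3.72% without *nr4A* replicate 1).

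The sign of a log2 difference changed as follows. Without the 6 libraries that stand apart, the values were ACTN2 at 0.092, MYL6B at -0.0091, CNN2 at -0.017, TTN at 0.041, TPM1 dd_Smed_v4_405 at -0.0073 and TPM1 dd_Smed_v4_436 at -0.017 for head week 2, CAPZB at -0.14, MYL6B at -0.45 and TTN at 0.20 for head week 5, CAPZB at -0.069 for the head mean over the weeks, CAPZB at -0.16 for head week 5 minus week 2, CAPZB at -0.015 and TTN at 0.10 for tail week 2, CAPZB at 0.045, MYL6B at 0.047 and CNN2 at 0.0026 for tail week 3, ACTN2 at 0.0082, CAPZB at -0.017 and TPM1 dd_Smed_v4_405 at -0.011 for the tail mean over the weeks and CAPZB at -0.059 and TTN at 0.004 for head minus tail. Without the 5 libraries over 2%, the values were ACTN2 at 0.092, MYL6B at -0.0091, CNN2 at -0.017, TTN at 0.041, TPM1 dd_Smed_v4_405 at -0.0073 and TPM1 dd_Smed_v4_436 at -0.017 for head week 2, CAPZB at -0.14, MYL6B at -0.45 and TTN at 0.20 for head week 5, CAPZB at -0.069 for the head mean over the weeks, CAPZB at -0.16 for head week 5 minus week 2, CAPZB at -0.015 and TTN at 0.10 for tail week 2, ACTN2 at 0.056, CAPZB at -0.041 and TPM1 dd_Smed_v4_405 at -0.028 for the tail mean over the weeks and CAPZB at -0.026 for head minus tail. Without the 6 libraries that stand apart and without week 5, the values were CAPZB at -0.037 for the head mean over the weeks, CNN2 at 0.025 for the tail mean over the weeks and CAPZB at -0.051 and TTN at 0.0074 for head minus tail. Without week 3, the values were MYL6B at 0.016 and TTN at -0.0103 for the head mean over the weeks and CNN2 at 0.036 and TPM1 dd_Smed_v4_436 at 0.025 for the tail mean over the weeks. With no filter on low counts, the values were CNN2 at 0.0015 for tail week 4. With DESeq2, the values were CNN2 at 0.0025 for tail week 4 and TPM1 dd_Smed_v4_405 at -0.0017 for the tail mean over the weeks. With the 24 libraries of a tissue in one fit, the values were CNN2 at 6e-04 for tail week 4. With rows as deposited, the values were CNN2 at 0.0034 for tail week 4. With both tropomyosin contigs counted as 1, the values were TPM1 dd_Smed_v4_405 at -0.0069 for tail week 4 and TPM1 dd_Smed_v4_405 at -0.0081 for the tail mean over the weeks. Without week 2, the values were ACTN2 at 0.078, CAPZB at -0.051, MYL6B at -0.028 and TPM1 dd_Smed_v4_405 at -0.058 for the tail mean over the weeks. Without week 5, the values were CNN2 at 0.032 and TPM1 dd_Smed_v4_436 at 0.026 for the tail mean over the weeks and CAPZB at -0.028 for head minus tail. With the DESeq2 size factors in edgeR, the values were TPM1 dd_Smed_v4_405 at -0.0023 for the tail mean over the weeks. Without week 4, the values were TPM1 dd_Smed_v4_405 at -0.0062 for the tail mean over the weeks.

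Leaving out each replicate in turn, the ranges that crossed 0 were -0.37 to 0.092 for ACTN2, -0.0091 to 0.13 for MYL6B, -0.017 to 0.051 for CNN2, -0.15 to 0.041 for TTN, -0.0073 to 0.067 for TPM1 dd_Smed_v4_405 and -0.017 to 0.078 for TPM1 dd_Smed_v4_436 (head week 2), -0.046 to 0.13 for TTN (head week 4), -0.089 to 0.19 for MYL6B and -0.20 to 0.056 for TTN (head week 5), -0.12 to 0.037 for MYL6B and -0.028 to 0.074 for TTN (the head mean over the weeks), -0.14 to 0.11 for CAPZB, -0.25 to 0.068 for MYL6B and -0.093 to 0.17 for TTN (head week 5 minus week 2), -0.015 to 0.27 for CAPZB and -0.31 to 0.10 for TTN (tail week 2), -0.077 to 0.045 for CAPZB, -0.16 to 0.047 for MYL6B and -0.17 to 0.0026 for CNN2 (tail week 3), -0.11 to 0.034 for CAPZB, -0.0042 to 0.092 for MYL6B, -0.035 to 0.019 for CNN2, -0.0299 to 0.031 for TPM1 dd_Smed_v4_405 and -0.062 to 0.0085 for TPM1 dd_Smed_v4_436 (tail week 4), -0.025 to 0.14 for ACTN2 (tail week 5), -0.099 to 0.082 for ACTN2, -0.079 to 0.048 for CAPZB, -0.024 to 0.098 for MYL6B, -0.049 to 0.025 for CNN2, -0.047 to 0.026 for TPM1 dd_Smed_v4_405 and -0.084 to 0.014 for TPM1 dd_Smed_v4_436 (the tail mean over the weeks), -0.054 to 0.074 for ACTN2 (tail control week 5 against week 2) and -0.063 to 0.14 for CAPZB and -0.15 to 0.013 for TTN (head minus tail).

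Same-numbered control and *nr4A(RNAi)* libraries deviated together beyond a correlation of 0.1 in 13 of 24 pairs of libraries (range -0.36 to 0.44). All 3 pairs did so in 2 of the 8 weekly comparisons, head week 2 and tail week 5. There the block gave 0 and 1 of the 7 called, as without it, beside 0% and 14.5% of all contigs. The numbers were not taken to pair the samples in the other 6. With the replicate number as a block, 3 of the 7 were called for head week 3, where 5.51% of all contigs were, and the block changed no other count by over 1.5 times, while the value that changed sign was TPM1 dd_Smed_v4_405 at -0.0014 for the tail mean over the weeks. The block lies within a week and was not fitted to the change of the controls between weeks.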
